A study of Homo sapiens with 3 samples.

Results

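The mRNAs of 35 integrin and laminin subunits were examined in LX-2 cells after vehicle or rhFGF19. They were chosen by symbol, with earlier results of these data known. They are the protein-coding genes among 26108 whose names are those of integrin α or β subunits or of laminin α, β or γ chains. The 35 genes comprised 16 integrin α subunits, 8 integrin β subunits, 5 laminin α chains, 4 laminin β chains and 2 laminin γ chains. ITGA8, ITGAD and LAMC3 were not analysed here.

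LX-2 cells are an established line of human hepatic stellate cells. The agent, rhFGF19, is the recombinant form of human FGF19, an endocrine fibroblast growth factor. Poly(A) RNA was sequenced from a culture given vehicle, a culture given rhFGF19 at 50 ng/mL and a culture given 100 ng/mL, with 1 library each. The time is uncertain, since the records name 24 h in one place and 72 h and 73 h in another, and since the latter place also exchanges the doses, the doses here follow the sample titles. Every comparison was between single libraries of 1 cell line and had no replicate check, and both rhFGF19 libraries were compared with the same vehicle library. Where 3 values follow a gene they are in the order vehicle, 50 ng/mL, 100 ng/mL, and where 2 fold changes follow they are in the order 50, 100 ng/mL.

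Integrins are transmembrane receptors made of an α and a β subunit. The pairing decides the ligand, since α3, α6 and α7 bind laminins, α1 and α2 bind collagens, and α5 and αV bind fibronectin, vitronectin and related proteins. Laminins are trimers of an α, a β and a γ chain that form the sheet of a basement membrane. In normal liver, stellate cells lie in a loose matrix without a continuous sheet of this kind, and their integrins are known for sensing matrix and, for αV pairs, for releasing latent TGF-β.

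The values were FPKM, that is, fragments counted per kilobase of transcript and scaled to each library's mapped fragments. Being per length, they let the levels of genes be set side by side. They are not scaled for base composition, which went with the fold changes, as given further on. The values summed to between 276690 and 302243 over all genes, and at least 1 FPKM was listed for 8890, 10925 and 10894 genes. FPKM keeps no read counts, so the depth is unknown. Of the stellate and fibroblast markers, VIM, TIMP1, TAGLN, COL1A1 and ACTA2 were present, whereas LRAT, the enzyme that makes retinyl esters in quiescent stellate cells, was listed at 0 in all 3 libraries, DES and PDGFRA did not exceed 0.09 FPKM, and COL1A2 did not exceed 0.14 FPKM. In bulk RNA, fewer cells that express a gene and less of its RNA per cell cannot be told apart.

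A subunit was carried into the comparisons when its mean over the 3 libraries was at least 0.5 FPKM. That left 23 of the 35, made up of 10 integrin α subunits, 5 integrin β subunits, 3 laminin α chains, 3 laminin β chains and 2 laminin γ chains. The other 12 were ITGA4, ITGA9, ITGA10, ITGA11, ITGAL, ITGAM, ITGB6, ITGB7, ITGB8, LAMA2, LAMA3 and LAMB4. None of these 12 exceeded 0.14 FPKM in any library, and ITGA9 was listed at 0 in all 3. ITGA11, a collagen receptor subunit of fibroblasts, was listed at 0.11, 0.1 and 0.14 FPKM. ITGB6 and ITGB8, whose αV pairs release latent TGF-β, did not exceed 0.03 FPKM.

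**Figure D1:**
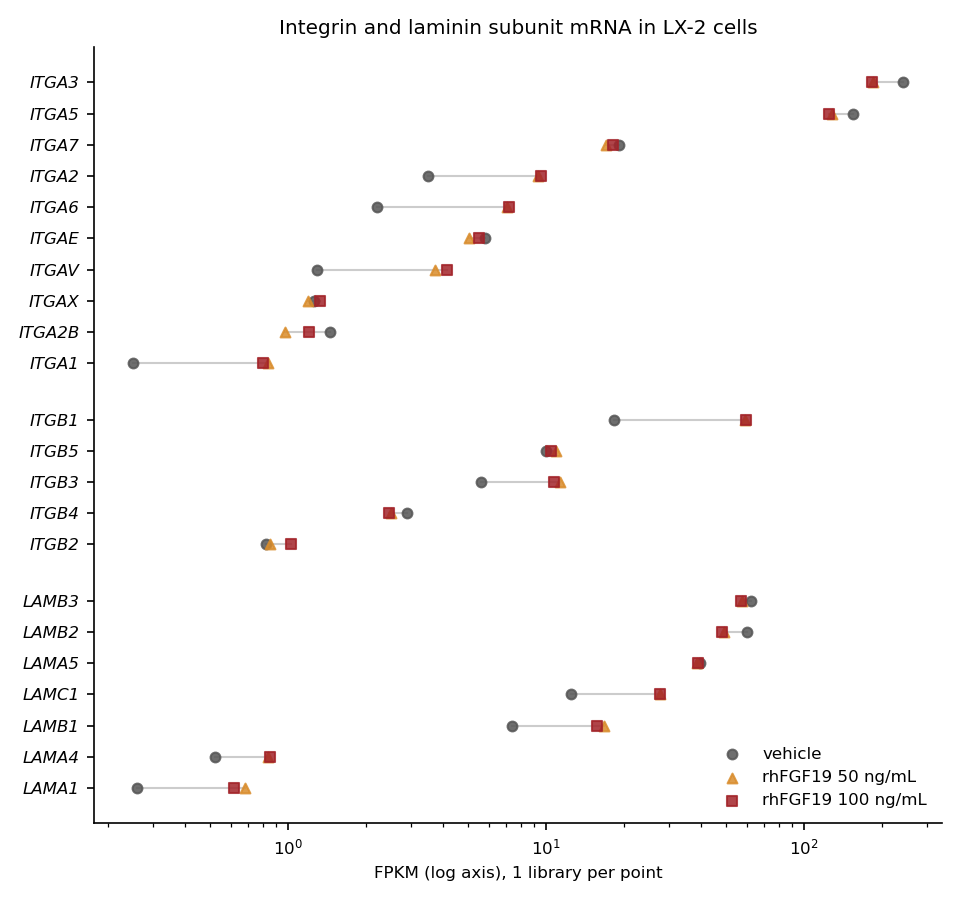
FPKM on a log axis of 22 of the 23 subunits that passed the filter, with a circle for the vehicle library, a triangle for rhFGF19 at 50 ng/mL and a square for 100 ng/mL. ITGA3 and ITGA5 lie at the top in every library, and the widest gaps between the circle and the other symbols are those of ITGA1, ITGA2, ITGA6, ITGAV and ITGB1.

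A fold change was the difference of log2(FPKM + 0.1), which understates the change of low genes, and a gene was counted as higher or lower when it differed by more than 2-fold, a log2 fold change past 1. At 50 ng/mL, 9 of the 23 subunits were higher than in vehicle, or 39.1%, beside 39.5% of all 12422 genes that passed the filter. At 100 ng/mL, 7 of the 23 were higher, or 30.4%, beside 38.6% of all genes. The 7 genes higher at both doses were ITGA1, ITGA2, ITGA6, ITGAV, ITGB1, LAMB1 and LAMC1, beside 36.3% of all genes at both doses. ITGB3 and LAMA1 were past 2-fold at 50 ng/mL only. At 100 ng/mL ITGB3 lay at 0.93 and LAMA1 on the limit, without passing it. No subunit was lower by more than 2-fold at either dose, where 1.75% and 1.47% of all genes were. The share of the subunits counted as higher was therefore close to the background at 50 ng/mL. The lower share at 100 ng/mL came from ITGB3 and LAMA1 alone, so it is not read as a difference from the background. Both shares depended on the settings, as given at the end.

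The median log2 fold change of the 23 subunits was 0.060 and 0.16, beside 0.62 and 0.62 over all genes. The subunits ran from below vehicle to past 2-fold higher, with LAMA4 in between at 0.60 and 0.62. Of the 23, 9, or 39.1%, were below vehicle at both doses, beside 31.8% of all genes. No subunit differed by more than 2-fold between the rhFGF19 libraries, where 1.64% of all genes did. The largest difference between these libraries among the subunits was 0.29 on the log2 scale, for ITGA2B.

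**Figure D2:**
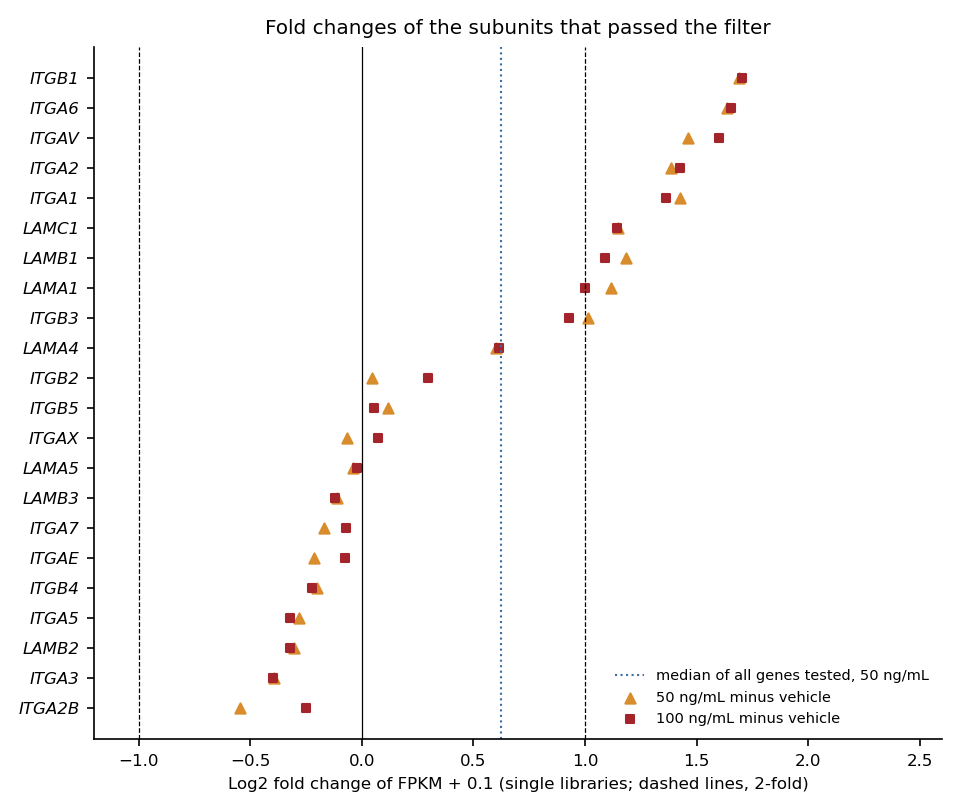
Log2 fold change of FPKM + 0.1 against the vehicle library for 22 of the 23 subunits, with triangles for 50 ng/mL and squares for 100 ng/mL, dashed lines at 2-fold and a dotted line at the median of all genes tested. The subunits run from -0.54 for ITGA2B at 50 ng/mL to 1.70 for ITGB1 at 100 ng/mL, and the values of both doses lie close together.

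The coding sequences of these genes differ in base composition, and examples are shown from a place where the proteins are alike. Just inside the membrane, integrin α subunits share the GFFKR motif, which clasps the β subunit in the resting receptor, and most β subunits carry an NPxY or NPxF motif, where talin or kindlin binds. The motif codons were found once in each of the 10 α subunits that passed. The stretches below are coding sequence from GENCODE v29 transcripts on GRCh38, written 5′ to 3′ on the coding strand with the motif codons in capitals. Each joins 2 exons, so its coordinates take in the intron between them. The first 4 come from genes that were higher at both doses and the next 5 from genes that were not, and they were picked as examples after the values were seen, so they carry no test.
ITGA1, chr5:52947441-52952445 on the plus strand: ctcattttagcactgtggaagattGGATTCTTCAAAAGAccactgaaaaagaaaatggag
ITGA6, chr2:172498080-172504129 on the plus strand: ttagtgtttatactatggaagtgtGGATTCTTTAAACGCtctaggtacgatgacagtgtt
ITGAV, chr2:186676915-186677235 on the plus strand: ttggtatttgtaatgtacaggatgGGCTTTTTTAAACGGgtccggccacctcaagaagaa
ITGB1, chr10:32901597-32908385 on the minus strand: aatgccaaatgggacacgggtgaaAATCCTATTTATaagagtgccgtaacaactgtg
ITGA3, chr17:50087849-50088263 on the plus strand: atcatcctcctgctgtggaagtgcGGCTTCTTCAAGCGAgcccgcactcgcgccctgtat
ITGA7, chr12:55685250-55687991 on the minus strand: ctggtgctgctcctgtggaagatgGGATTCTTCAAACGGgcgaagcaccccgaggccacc
ITGA2B, chr17:44372385-44374374 on the minus strand: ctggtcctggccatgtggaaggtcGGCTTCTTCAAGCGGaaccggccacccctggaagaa
ITGB2, chr21:44886395-44886756 on the minus strand: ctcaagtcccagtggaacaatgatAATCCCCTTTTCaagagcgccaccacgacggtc
ITGAE, chr17:3714904-3716708 on the minus strand: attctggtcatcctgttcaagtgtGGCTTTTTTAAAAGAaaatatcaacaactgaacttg
GC content was 36.7% in the ITGA1 and ITGA6 stretches, 43.3% in that of ITGAV and 42.1% in that of ITGB1. It was 60.0% in the ITGA3 stretch, 61.7% in those of ITGA7 and ITGA2B and 52.6% in that of ITGB2. The matching stretches that are not printed had lower values among the genes that were not higher, with 51.7% in ITGA5, 49.1% in ITGB3, 47.4% in ITGB5 and 45% in ITGAX. Over all 14 stretches found, GC content was 35% to 43.3% in the 5 genes higher at both doses and 33.3% to 61.7% in the other 9, so the ranges overlap. ITGAE, with 33.3%, was GC-poor in this stretch although its whole coding sequence was not, as given with the base composition of all the subunits further on.

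Among the integrin α subunits, ITGA3 and ITGA5 stood far above the rest. ITGA3, the α subunit of the laminin receptor α3β1, was listed at 242.84, 184.56 and 184.18 FPKM. It ranked first among the subunits in every library, and its log2 fold change was -0.40 at each dose. ITGA5, the α subunit of the fibronectin receptor α5β1, had 155.41, 127.91 and 124.42 FPKM, a log2 fold change of -0.28 and -0.32. Both genes were thus lower in the rhFGF19 libraries by less than 2-fold. ITGA7, another laminin receptor subunit, had 19.14, 17.01 and 18.2 FPKM and differed by -0.17 and -0.072 on the log2 scale.

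ITGA6, ITGAV, ITGA2 and ITGA1 were the 4 α subunits past 2-fold at both doses, and each was low in vehicle. ITGA6, which pairs with β1 or β4 to bind laminins, had 2.21, 7.09 and 7.18 FPKM. Its log2 fold change was 1.64 and 1.66, a 3.21-fold and 3.25-fold difference in FPKM. ITGAV, the shared α subunit of the vitronectin and latent TGF-β receptors, had 1.29, 3.73 and 4.12 FPKM. Its log2 fold change was 1.46 and 1.60. Both rhFGF19 libraries lay above vehicle for these genes, and close to each other.

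ITGA2, the α subunit of the collagen receptor α2β1, had 3.5, 9.32 and 9.58 FPKM, a log2 fold change of 1.39 and 1.43. ITGA1, of the collagen receptor α1β1, had 0.25, 0.84 and 0.8 FPKM, a log2 fold change of 1.43 and 1.36. ITGA1 stayed under 1 FPKM in all 3 libraries and shared 2.56% of its exonic bases with PELO, a ribosome rescue gene, on the same strand. Its 3.36-fold and 3.20-fold ratios of FPKM therefore rest on very low values.

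The α subunits best known from blood cells were low and differed by less than 2-fold. ITGAE, the αE subunit of intraepithelial lymphocytes, had 5.82, 5.01 and 5.51 FPKM, and 6.41% of its exonic bases overlap HASPIN on the opposite strand. Whether the counting used strand is not given in the sources used here, so reads of these genes may not have been told apart. ITGAX, the αX subunit of myeloid cells, had 1.26, 1.2 and 1.33 FPKM. ITGA2B, the αIIb subunit of platelets, had 1.46, 0.97 and 1.21 FPKM and the lowest fold change of the subunits at 50 ng/mL, -0.54. The leukocyte markers other than ITGB2 summed to 53.06, 47.8 and 43.37 FPKM, mostly CD68, a lysosomal protein also made outside leukocytes, over 5 of 8 markers. The 1 platelet marker analysed, GP1BA, had between 0.12 and 0.66 FPKM.

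Among the β subunits, ITGB1 showed the largest log2 fold change, and on the log2(FPKM + 0.1) scale the largest of all 23, although the plain FPKM ratio of ITGA1 at 50 ng/mL was higher. ITGB1, the common β1 subunit at chr10:32900318-33005792, had 18.31, 59.3 and 59.79 FPKM. The log2 fold change was 1.69 and 1.70, a 3.24-fold and 3.27-fold difference in FPKM. ITGB1 moved from rank 7 among the subunits in vehicle to rank 3 in both rhFGF19 libraries.

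ITGB3, the β3 subunit, had 5.59, 11.38 and 10.72 FPKM, and its log2 fold change of 1.01 and 0.93 lay on either side of the limit. It shares 51.6% of its exonic bases with AC068234.1, a gene model on the same strand, so its level is uncertain where counting could divide reads between them. ITGB5, the β5 subunit of the vitronectin receptor αVβ5, had 10.03, 10.89 and 10.41 FPKM, a log2 fold change of 0.12 and 0.053. ITGB4, the β4 subunit of hemidesmosomes, had 2.9, 2.51 and 2.47 FPKM, a log2 fold change of -0.20 and -0.22. ITGB2, the leukocyte β2 subunit, had 0.82, 0.85 and 1.03 FPKM. Of the β subunits, ITGB1 and ITGB3 alone lay above the median of all genes.

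The balance of α and β subunit mRNA differed between vehicle and rhFGF19. The 11 α partners of β1 summed to 424.85, 350.65 and 348.79 FPKM, which was 23.2, 5.91 and 5.83 times the ITGB1 level. ITGA3 and ITGA5 made up 93.7%, 89.1% and 88.5% of that sum. The ratio of ITGA3 to ITGA6, the abundant and the scarce α subunit of the laminin receptors, was 110, 26.03 and 25.7. Summed over all 8 genes, β subunits came to 37.74, 85.05 and 84.46 FPKM. In every library the α partners therefore exceeded ITGB1, by less in the rhFGF19 libraries.

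Among the laminins, the chains LAMB1 and LAMC1 were higher at both doses, and the most abundant chains were not. LAMC1, the γ1 chain at chr1:183023420-183145592, had 12.49, 27.77 and 27.67 FPKM, a log2 fold change of 1.15 and 1.14. LAMB1, the β1 chain at chr7:107923799-108003176, had 7.35, 16.82 and 15.77 FPKM, a log2 fold change of 1.18 and 1.09. In both genes the rhFGF19 libraries lay at more than 2.1 times the vehicle value.

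LAMB3, a β3 chain known from epithelia, was the most abundant laminin chain in all 3 libraries with 62.06, 57.36 and 57.06 FPKM. LAMB2, the β2 chain, had 60.25, 48.75 and 48.2 FPKM, a log2 fold change of -0.30 and -0.32. LAMA5, the α5 chain of laminin-511 and laminin-521, had 39.59, 38.56 and 38.97 FPKM. These 3 chains differed from vehicle by no more than 0.32 on the log2 scale.

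LAMA4, the α4 chain of mesenchymal laminins, had 0.52, 0.84 and 0.85 FPKM, a log2 fold change of 0.60 and 0.62 that lay at the median of all genes. LAMA1, the α1 chain of embryonic laminin-111, had 0.26, 0.68 and 0.62 FPKM, and 10.3% of its exonic bases overlap an antisense gene. Both stayed under 1 FPKM. The sum of the laminin α chains was 40.43, 40.25 and 40.61 FPKM and of the β chains 129.66, 122.94 and 121.03 FPKM. The ratio of LAMB2 to LAMB1 was 8.20, 2.90 and 3.06. The α and β sums thus differed little, while LAMB1 made up more of the β sum in the rhFGF19 libraries. The median GC content of the listed transcripts was 49.7% for LAMB1 and 60.3% for LAMB2, and the part of composition in their ratio was not tested.

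LAMB3 is known as an epithelial chain, and the epithelial marker list was examined beside it. Over 7 of its 9 genes it summed to 504.59, 308.99 and 303.55 FPKM. KRT18, with 382.22, 225.86 and 223.78 FPKM, and KRT8, with 120.96, 81.89 and 78.5 FPKM, made up nearly all of it. CDH1 and ESRP1, which define epithelia, stayed under 0.1 FPKM in all 3 libraries.

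Subunit mRNAs were then set together as receptors, with the lowest subunit standing for the level of a pair. Of 24 known heterodimers, 12 had both subunits past the filter, and 9 had both at 1 FPKM or more in all 3 libraries. These were α2β1, α3β1, α5β1, α6β1, α7β1, αVβ1, αVβ3, αVβ5 and α6β4. An mRNA level does not give the amount of a pair on the cell surface. A subunit shared between pairs was set in full against each of them. Pairs with the same lowest subunit therefore repeat the value of the same gene and are not separate measurements.

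For α3β1 and α5β1 the lowest subunit was ITGB1 in every library, so these pairs carry its 18.31, 59.3 and 59.79 FPKM. For αVβ1, αVβ3 and αVβ5 it was ITGAV, with 1.29, 3.73 and 4.12 FPKM. For α7β1 it was ITGB1 in vehicle at 18.31 FPKM and ITGA7 in the rhFGF19 libraries at 17.01 and 18.2 FPKM, so the lowest level differed by less than 10% although ITGB1 was higher. For α6β4 it was ITGA6 in vehicle at 2.21 FPKM and ITGB4 in the rhFGF19 libraries at 2.51 and 2.47 FPKM. All 4 laminin receptors, α3β1, α6β1, α7β1 and α6β4, were among the 9 pairs, and the lowest subunit of α3β1 and α6β1 was at least 3.21 times its vehicle level, whereas that of α6β4 was at most 1.14 times it.

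Laminin trimers were treated alike. Laminin-511 and laminin-521, which share LAMA5, were among those with every chain at 1 FPKM or more in all libraries. The lowest chain of laminin-511 was LAMB1, with 7.35, 16.82 and 15.77 FPKM. That of laminin-521 was LAMC1, with 12.49, 27.77 and 27.67 FPKM. LAMB3 was abundant, but LAMA3, the α3 chain it is known to join, did not exceed 0.12 FPKM, and LAMA2, the α2 chain of laminin-211, did not exceed 0.06 FPKM.

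**Figure D3:**
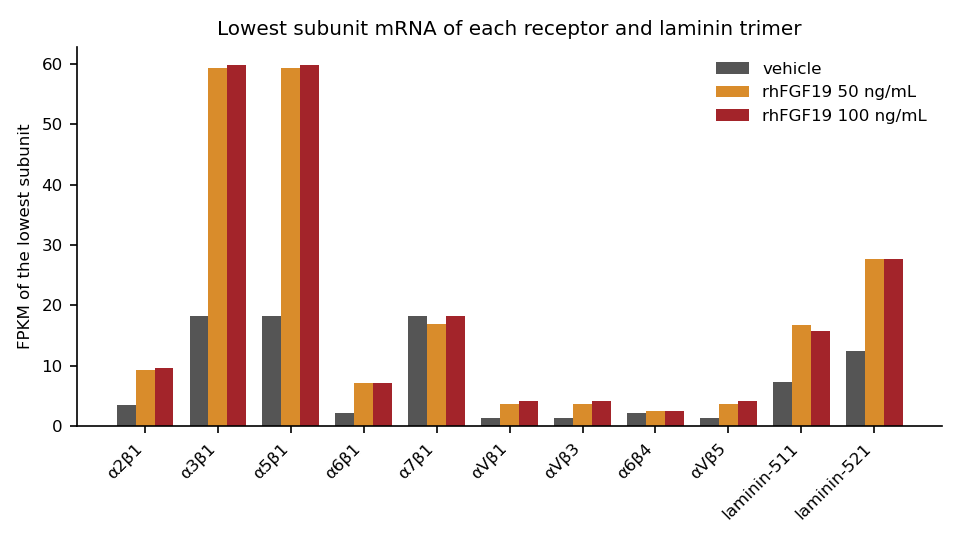
FPKM of the lowest subunit of the 9 heterodimers with both subunits at 1 FPKM or more, and of laminin-511 and laminin-521, which are not all the trimers that met this limit, as bars for vehicle and rhFGF19 at 50 and 100 ng/mL, 1 library each. The bars of α3β1 and α5β1, which both repeat the ITGB1 value, go from 18.31 to 59.79 FPKM, while those of α7β1 and α6β4 stay near the vehicle level. The bars of the αV pairs likewise repeat the ITGAV value.

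Receptors were also set beside ligands other than laminins. Of 23 such receptor and ligand combinations, 9 had every gene past the filter and 7 had every gene at 1 FPKM or more. These were α5β1, αVβ1 and αVβ3 with FN1, αVβ3 and αVβ5 with VTN, α2β1 with COL1A1, and αVβ1 with TGFB1. FN1, or fibronectin, had 58.63, 124.58 and 120.75 FPKM, a log2 fold change of 1.09 and 1.04. It was past 2-fold higher at both doses, as ITGB1 was and as 36.3% of all genes were. ITGA5, the α subunit of α5β1, was at -0.28 and -0.32. COL1A1, a fibrillar collagen chain, had 78.35, 107.83 and 104.14 FPKM, a log2 fold change of 0.46 and 0.41. VTN, or vitronectin, differed by -0.66 and -0.46 on the log2 scale and TGFB1 by -0.52 and -0.51, in the direction opposite to ITGAV.

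Over the whole list of non-laminin ligands, 8 of 17 tested genes, or 47.1%, were higher at both doses and 0 were lower, beside 36.3% and 0.636% of all genes. SPP1, or osteopontin, a ligand of αVβ3, had 0.55, 2.94 and 2.07 FPKM, a log2 fold change of 2.23 and 1.74. EDIL3, a secreted ligand of αV integrins, had 4.7, 13.56 and 13.34 FPKM, and THBS1, or thrombospondin 1, had 13.52, 34.23 and 31.88 FPKM. ADAM15, a membrane protease with an integrin-binding domain, lay lowest in that list, with a log2 fold change of -0.85 and -0.86.

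Genes that act with integrins inside the cell were counted in lists, with values for those at either end of each list. Among integrin activators and adaptors, 6 of 23, or 26.1%, were counted as higher at both doses, below the 36.3% of all genes. Their median log2 fold change was 0.63 and 0.60 over all 23, beside 0.62 and 0.62 over all genes. Of the 6 counted as higher, FERMT1 lay on the limit at 50 ng/mL, with a log2 fold change of 1 and 1.15. It was counted there only through rounding in the calculation. FERMT2, or kindlin 2, an activator of integrins, had 1.2, 3.99 and 4.15 FPKM, a log2 fold change of 1.65 and 1.71, and VCL, or vinculin, had one of 1.23 and 1.22. TLN1, or talin 1, which binds β tails, differed by 0.14 and 0.059 on the log2 scale, and ILK, integrin-linked kinase, by -0.67 and -0.67. Among focal adhesion kinases and scaffolds, 14 of 22 were higher at both doses, including the Src family kinase YES1 with a log2 fold change of 1.70 and 1.62, and GIT1 lay lowest with -0.62 and -0.59. The share of this list was 63.6% at each dose, and its median transcript GC content was 47.6%, beside 51.1% over all genes tested. In the fifth of all genes with GC content from 43.1% to 48.3%, 68.7% were higher at 50 ng/mL, and the part of composition in the count of this list was not tested.

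Among the genes of integrin trafficking, 5 of 10 were higher at both doses, beside 36.3% of all genes, and 1 more, EEA1, at 50 ng/mL only. The median transcript GC content of this list was 45.4%, which also lies in the fifth from 43.1% to 48.3%. The part of composition in its count was not tested. RAB5A, the early endosome GTPase, had 1.64, 4.63 and 4.33 FPKM. SNX17, which sends β1 integrins back to the surface, had 171.15, 87.47 and 85.67 FPKM, a log2 fold change of -0.97 and -0.998 at the edge of 2-fold. Among tetraspanins and lateral partners, 4 of 11, or 36.4%, were higher, a share at that of all genes, these being CD9, CD46, CD47 and CAV1. CD151, the tetraspanin bound to laminin-binding integrins, had 263.66, 146.86 and 154.31 FPKM, a log2 fold change of -0.84 and -0.77. CD151 was thus lower in both rhFGF19 libraries, as ITGA3 was, while ITGA6 and ITGB1 were higher.

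Of the partners of laminin, 1 of 7 other laminin receptors, or 14.3%, was higher at both doses, beside 36.3% of all genes. It was DAG1, or dystroglycan, with 20.01, 41.63 and 40.41 FPKM. The median log2 fold change of these 7 receptors was 0.72 and 0.70, beside 0.62 and 0.62 over all genes. RPSA, a laminin receptor that is also a ribosomal protein, had 1237.34, 728.31 and 747.73 FPKM. In the basement membrane list 1 of 10, or 10%, was higher at both doses, beside the same 36.3%. It was NTN4, or netrin 4, a laminin-related protein, with 2.23, 5.83 and 6.11 FPKM. The median log2 fold change of the basement membrane list was 0.72 and 0.78, so its low count came with a median above that of all genes. AGRN, or agrin, had 78.73, 70.39 and 67.09 FPKM. Of 4 hemidesmosome genes 1, or 25%, was higher at both doses, beside 36.3% of all genes. It was DST, or dystonin, with a log2 fold change of 1.17 and 1.16, and PLEC, or plectin, the linker of β4, differed by -0.44 and -0.47. None of the lists held a gene past 2-fold lower at both doses, where 0.636% of all genes were.

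**Figure D4:**
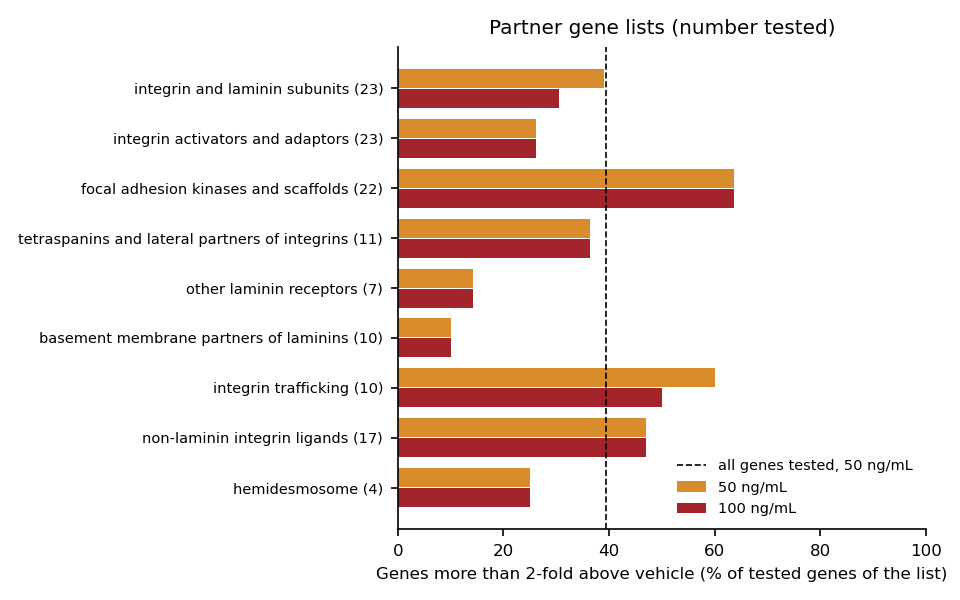
Percentage of the tested genes of each list that were more than 2-fold above vehicle, at 50 and at 100 ng/mL, with the number tested in parentheses and a dashed line at 39.5%, the share over all genes at 50 ng/mL. The subunits lie at the line at 50 ng/mL, the focal adhesion kinases and scaffolds, with a median transcript GC content of 47.6%, at 63.6%, and the basement membrane and other laminin receptor lists below it. The median log2 fold changes of the basement membrane and other laminin receptor lists nevertheless lay above that of all genes.

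Which subunits were higher went together with the base composition of their transcripts, as over all genes. The GC content of a gene was taken as the median over its listed transcripts. It was 37.7% to 49.7% with a median of 41.5% in the 7 subunits higher at both doses, and 47.4% to 65.3% with a median of 57.4% in the other 16. Over 23 subunits the Spearman correlation of GC content with the log2 fold change was -0.78 and -0.79, and over 12397 genes it was -0.77 at each dose. The genes share their libraries and are not replicates, so these correlations are descriptions. For the difference of the rhFGF19 libraries from each other, it was 0.068 over all genes.

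At the wobble position, the last base of a codon, GC content was at most 54.5% with a median of 40.6% in the 7 higher subunits, and 48.6% to 83.4% with a median of 70.2% in the other 16. ITGB1 had 38.6% at these positions, ITGA6 43.0% and ITGAV 40.6%. ITGA3 had 76.0%, ITGA5 67.9%, LAMA5 81.6% and ITGB4 82.8%. Paired genes of one function thus differed in composition as well as in fold change, as LAMB1 with 50.99% and LAMB2 with 62.1% did.

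**Figure D5:**
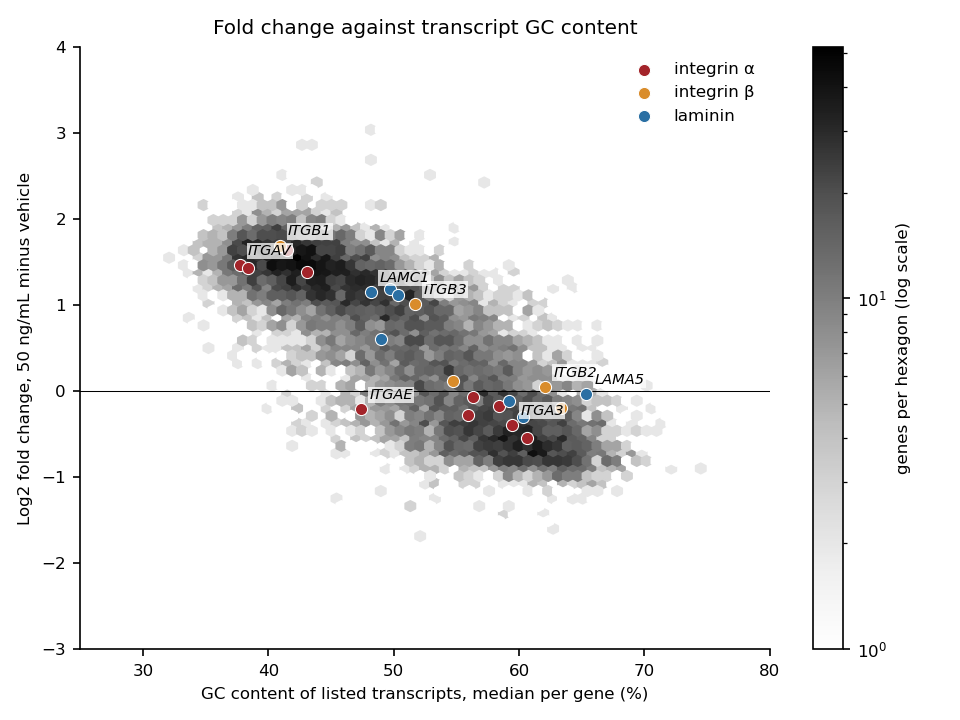
Log2 fold change at 50 ng/mL against the median GC content of each gene's transcripts, with all genes as grey hexagons shaded by number on a log scale and integrin α, integrin β and laminin subunits as coloured points. Of 12397 genes, 32 lie beyond the axes. The subunits follow the band of all genes, from ITGAV and ITGB1 at low GC content to ITGA3 and LAMA5 at high GC content, and ITGAE lies below the band.

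Set against genes of similar GC content, some subunits lay close to them and others further off. The 200 genes nearest to ITGB1 in GC content had a median of 1.47 on the log2 scale at 50 ng/mL, beside 1.69 for ITGB1. Those nearest to ITGA3 had -0.33, beside -0.40 for ITGA3. Those nearest to LAMC1 had 1.08, beside 1.15 for LAMC1.

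With the trend on GC content removed, no subunit was past 2-fold higher at either dose, beside 3.72% and 3.33% of all genes, and the values of the 7 lay between -0.10 and 0.35 as means of both doses. The values furthest above the trend were those of ITGB2 at 0.58, LAMA5 at 0.49 and ITGB3 at 0.44. ITGAE alone was past 2-fold lower, with -1.26 and -1.11, where 5.14% and 4.58% of all genes were. The 200 genes nearest to it in GC content had medians of 1.08 and 1.06, while ITGAE itself had a log2 fold change of -0.21 and -0.078. The listed transcripts of ITGAE had a median GC content of 47.4%, whereas its coding sequence had 55.3% and its wobble positions 66.8%. With the trend on wobble positions removed instead, an alternative added after the data were seen, ITGAE lay at -0.29 as the mean of both doses. No subunit was then past 2-fold in either direction, where 5.69% and 4.99% of all genes were higher and 4.37% and 3.69% lower.

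Scaling also changed the counts. With the median log2 ratio of genes at 1 FPKM or more set to 0, ITGA1, ITGA2, ITGA6, ITGAV and ITGB1 were past 2-fold higher at both doses, beside 30.4% and 29.7% of all genes at each dose, and LAMB1 and LAMC1 were at 0.91 and 0.92 as means of both doses. With quantile normalization, ITGB1 and LAMC1 were past 2-fold higher at both doses, beside 9.19% and 8.42% of all genes at each dose, and ITGA2B was past 2-fold lower, beside 9.85% and 9.02%. A single library without rhFGF19 was available, so the treatment, its library and the composition trend cannot be told apart.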

How the data were processed

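Poly(A) RNA of LX-2 cells was sequenced by the authors in paired-end mode, with 1 library per condition, and the authors deposited 1 FPKM value per gene and library, to 2 decimals. The submitters' processing notes name HISAT2 2.0, StringTie 1.3.0, Bowtie 0.12.2 and the builds hg19 and mm8. The table's coordinates overlapped GRCh38 for 99.9% of the 25531 identifiers found in GENCODE 29, so positions are given as in the table and in GRCh38. The authors' filters are not given in the sources used here.

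Values of rows sharing a symbol were summed. Log2(FPKM + 0.1) was compared between libraries for symbols whose mean reached 0.5 FPKM, and an absolute difference above 1, the study's criterion, was counted. With 1 library per condition no p-value, SE or interval was computed, and the depth is unknown. All 35 members are in the counts, and the values of 1 of them are not reported here. Pairs and trimers were named when each subunit had at least 1 FPKM in all 3 libraries. Partner genes were named mainly as the 3 highest and 3 lowest of each list with a mean of at least 1 FPKM, as far as space allowed. TLN1, FN1, COL1A1, CAV1, EEA1 and FERMT1 were named after their values were seen. The members and lists were chosen with earlier results of these data known.

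GC content and length were medians over each gene's listed transcripts. Trends on them were taken out with lowess at a span of 0.3. Motif codons were searched in the longest complete coding transcript that held them, in β subunits near the end. As alternatives, the pseudocount, filter, scaling and threshold were varied and trends removed. Calculations used statsmodels 0.14.6, SciPy 1.17.1, pandas 2.3.3 and NumPy 2.4.6 in Python 3.11.15, and were tested on simulated data.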

Additional observations from a re-analysis of the deposited data

How the results depend on the processing

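Under other pseudocounts, filters, rescaling to TPM and protein-coding rows alone, the counts of subunits past 2-fold stayed within 1.5 times those reported. The share of all genes counted as higher did not stay alike under these settings. With a pseudocount of 1, 6 of 23 subunits were higher at each dose, beside 17.6% and 16.7% of all genes. After rescaling to TPM, 9 of 23 were higher at each dose, beside 44.5% and 43.1%. Where the subunits lay beside all genes thus depended on the setting. With the median ratio set to 0, the count of higher subunits at 50 ng/mL was 5, beside 30.4% of all genes. With quantile normalization 2 were higher and 1 was lower at each dose. Of all genes, 9.19% and 8.42% were higher and 9.85% and 9.02% lower. With the trend on GC content removed, 0 were higher and 1 was lower at each dose. Of all genes, 3.72% and 3.33% were higher and 5.14% and 4.58% lower. With the trend on GC at wobble positions of codons removed, 0 were higher at each dose, beside 5.69% and 4.99% of all genes. With the trend on transcript length removed, 2 were higher at 50 ng/mL and 3 at 100 ng/mL, beside 14.01% and 13.6% of all genes. Under that setting 1 subunit, ITGB4, was lower at 100 ng/mL, beside 15.2% of all genes. The medians of the subunits were then -0.43 and -0.33. With a threshold of 2 on the log2 scale, 0 were higher at each dose, beside 1.79% and 1.5% of all genes. With shares this low, a count of 0 among 23 does not set the subunits apart from all genes. Removal of the GC trend turned ITGA1 to -0.10, and removal of the wobble position trend turned ITGA1 to -0.079 and ITGA2 to -0.052, as means of both doses. Of 184 values of single subunits under the 8 alternatives that can change a value, 114 moved by less than 0.32, the SD of the log2 difference between the rhFGF19 libraries over all genes. The cause of these shifts was not tested. Subunits under 1 FPKM, such as ITGA1, LAMA1 and LAMA4, are the least certain, since FPKM keeps no counts. No paired analysis was possible because each condition had 1 library.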
